A study of Homo sapiens with 6 samples.

Results

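The class 3 semaphorin genes SEMA3A, SEMA3C, SEMA3D, SEMA3E and SEMA3F and the neuropilin genes NRP1 and NRP2 were examined for open chromatin in RH30 cells with and without MyoD. An open region was counted for a locus when its highest summit lay in the gene body or within 250 kb of it, and 267 of the 105569 regions of the series met that rule. The 7 genes were selected on measured values in part, since SEMA3A was chosen by its gained region of highest mean rank among all regions. Calls at SEMA3A use the same threshold as elsewhere and enter the totals, but they are a description only. No adjusted p is given for them. The other 6 genes are its relatives and their receptors. Of the 267 regions, 4 lay in a pair of neighbouring windows and were counted once in the totals, and 181 had a member gene as the nearest protein-coding 5′ end.

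RH30 is a fusion-positive (alveolar) rhabdomyosarcoma line, a muscle-lineage tumour of childhood. ATAC-seq, in which the Tn5 transposase inserts adapters where DNA is free of nucleosomes, was carried out on 3 vector libraries and 3 MyoD-deleted libraries. By the labels the vector cells had a scramble guide RNA and the MyoD-deleted cells a guide RNA targeting MyoD. The study describes Cas9 editing by a transfected plasmid and by lentivirus, and which route was used for these libraries is not stated. The labels name the cells RH30, while the study's text also names RH30-SR, a derivative with the IκBα super repressor of NF-κB, for this comparison, and whether these libraries carried the repressor is unclear. The labels call the replicates of a group biological without saying whether they are separate infections, clones or cultures, and p-values therefore measure the spread between these libraries only.

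Class 3 semaphorins are secreted guidance cues that steer axons, endothelial cells and migrating progenitors. Most of them bind the neuropilins NRP1 and NRP2, single-pass receptors with a short cytoplasmic tail, and the signal enters the cell through the plexin that pairs with the neuropilin. SEMA3E differs in that it binds plexin D1 directly. The neuropilins are also co-receptors for vascular endothelial growth factor. MyoD is the master transcription factor of the skeletal muscle lineage and binds E boxes, of which CAGCTG is the form most typical of muscle enhancers.

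The sequences below show the region by which SEMA3A was chosen, a lost region with an E box beside its summit, the leading gained region at NRP1, and a selection of the regions past the threshold that hold a motif near the summit. They are read 5′ to 3′ from the plus strand of GRCh38. Capitals mark a searched motif, and where the window held none they mark the summit base. The motifs were the E box CAGCTG, the E box written CAGGTG on one strand and CACCTG on the other, the AP-1 site TGACTCA with its reverse complement TGAGTCA, and the TEAD site GGAATG with its reverse complement CATTCC.
SEMA3A gained region, chr7:84729459-84729579: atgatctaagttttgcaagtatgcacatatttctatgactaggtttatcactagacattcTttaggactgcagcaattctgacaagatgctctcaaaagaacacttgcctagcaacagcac
SEMA3D lost region, chr7:85407549-85407669: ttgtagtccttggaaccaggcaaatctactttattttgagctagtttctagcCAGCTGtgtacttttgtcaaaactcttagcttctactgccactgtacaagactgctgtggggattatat
NRP1 gained region, chr10:33525123-33525243: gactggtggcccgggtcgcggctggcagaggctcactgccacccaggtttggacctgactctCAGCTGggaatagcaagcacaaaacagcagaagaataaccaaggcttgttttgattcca
SEMA3C lower region, chr7:81029649-81029684: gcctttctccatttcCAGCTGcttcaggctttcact
SEMA3C lower region, chr7:81064682-81064717: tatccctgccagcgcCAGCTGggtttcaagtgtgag
SEMA3E lower region, chr7:83428161-83428196: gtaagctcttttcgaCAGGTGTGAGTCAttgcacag
NRP2 lower region, chr2:205482866-205482901: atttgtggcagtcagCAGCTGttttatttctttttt
SEMA3C higher region, chr7:80883616-80883652: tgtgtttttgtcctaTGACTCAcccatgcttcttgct
SEMA3F higher region, chr3:50068324-50068360: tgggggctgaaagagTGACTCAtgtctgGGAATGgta
NRP1 higher region, chr10:33129454-33129489: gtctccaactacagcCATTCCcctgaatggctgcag
NRP1 higher region, chr10:33422002-33422037: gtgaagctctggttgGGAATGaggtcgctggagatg
In the SEMA3E window the AP-1 site begins at the base after the E box, so both stand in 1 run of capitals.

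The libraries held 63140 to 74121 peaks in the vector group and 73745 to 80608 in the MyoD-deleted group. The depth of the libraries is not in the peak lists, so every share below covers called peaks only. A peak with fewer than 8 to 10 stacked fragments, the smallest pileup called in a library, would not be listed. At the 5′ end of MYOD1 (chr11:17719004-17720574) the summit height was 2.75, 2.84 and 2.94 in vector cells, and after deletion it was 2.14, 2.50 and 2.43, a change of −0.49 (SE 0.10, limma adjusted p = 0.0021), which does not itself check the deletion. The 5′ ends of 6 of 6 muscle markers (MYOD1, MYOG, DES, CHRNA1, MYMK and CDH15) were open in all 6 libraries. Of the markers of other cells, PTPRC, PECAM1, ALB and CD3E were open in 0 libraries, EPCAM in 5, and GFAP in the 3 MyoD-deleted libraries only, and the part of such cells in the results was not tested.

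Summit height is given as the log2 pileup at a region's summit minus the median over the regions called in all 6 libraries, so that 0 is the height of a library's median region. A change is the mean of the MyoD-deleted libraries minus that of the vector libraries on this log2 scale, and a region is called higher or lower when its adjusted p in limma, over 47885 such regions, is under 0.05. A gained region had a peak in 3 of 3 MyoD-deleted and 0 of 3 vector libraries, and a lost region the reverse. The higher and lower regions named below were picked by adjusted p on summit height, so non-overlap of the groups there is a description only.

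Of the 267 regions, 15 were gained (5.62%, against 4.56% of all regions of the series) and 6 were lost (2.25%, against 1.78%). The SEMA3A window, chosen by its gained region, held 3 of the 15 gained and 3 of the 6 lost regions. A further 111 were called in all 6 libraries, and 25 of these were higher after MyoD deletion (22.5%, against 11.4% of all regions tested) and 14 were lower (12.6%, against 12.8%). The median change of the 111 was 0.04, as it was over all regions tested (0.04). The shares gained, lost and lower were thus near those of the whole series, and the share higher was above it. Of the 25 higher regions, 10 lay in the NRP1 window, and 5 of these had NRP1 as the nearest 5′ end. Another 4 lay in the SEMA3F window, and 0 of these had SEMA3F as the nearest. Without the SEMA3A locus, 22 of 94 were higher (23.4%) and 13 were lower (13.8%). Higher regions made up 64.1% of the called regions of the loci and 46.9% of those of the series. This split moved with the scale, to 84.8% and 75.5% without centring and to 50% and 46.9% by the rank of fold enrichment, where 8 regions were higher and 8 lower.

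The remaining 135 regions (50.6%, against 48.3% of all regions) were called in 1 to 5 libraries in other combinations. Of these, 88 were called in more MyoD-deleted than vector libraries, 32 in more vector libraries and 15 in as many of each. The same split over all such regions of the series is not given here, so the tilt is not read as a trait of the loci. The MyoD-deleted group holds more peaks in all, and the part of this in the tilt was not tested. At the 14 window edges the outermost region inside lay 186.7 to 249.0 kb from the gene and the first one outside 251.5 to 326.9 kb. The regions were mostly distal, with 22 of 267 (8.24%) within 2 kb of any protein-coding 5′ end, against 11.9% of all regions.

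**Figure D1:**
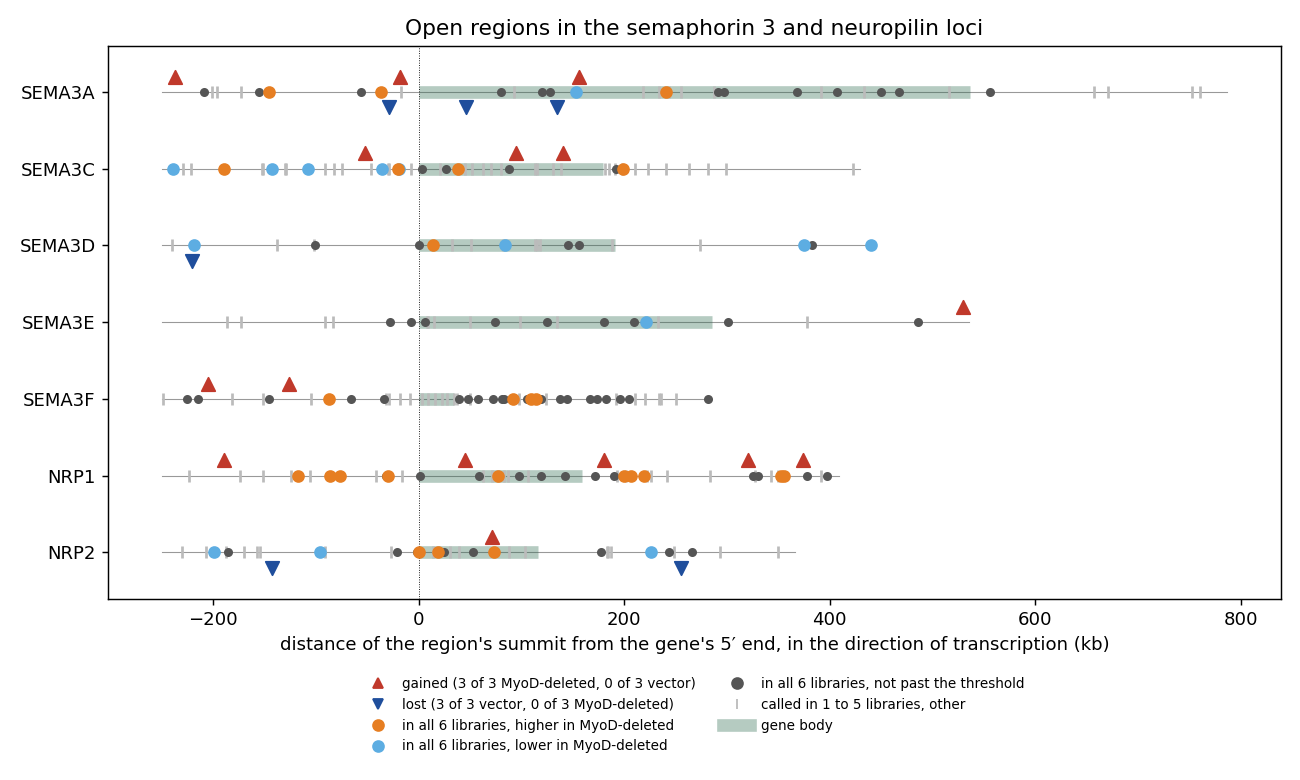
Each point is 1 open region, placed by the distance of its summit from the 5′ end of the gene in kb (positive in the direction of transcription), with 1 row per locus and the gene body as a green bar. The 5 gained regions at NRP1 and the 10 higher ones lie on both sides of the gene with 0 lost and 0 lower, while SEMA3D and SEMA3C hold mostly blue points among the called regions upstream of the gene. Over the series 4.56% of regions were gained and 1.78% lost, and 11.4% of those tested were higher and 12.8% lower.

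SEMA3A encodes the founding member of the class, a repellent of growing axons that binds NRP1. Its window (gene body chr7:83955777-84492724, minus strand) held 40 regions, of which 3 were gained, 3 were lost and 17 were called in all 6 libraries. Over all regions of the series 4.56% were gained and 1.78% lost. The region that led to the choice of the gene, chr7:84728988-84730015, lay 236.8 kb upstream of the outermost 5′ end, near the edge of the window. All SEMA3A distances upstream are from that end, which had no open region within 2 kb. The region at the canonical transcript's start lay 297.6 kb further in, so the distances from that start are larger. The chosen region was called in the MyoD-deleted libraries only. It had pileups of 72, 88 and 55 in the MyoD-deleted libraries and no peak in any vector library, and its fold enrichment stood at the 98.3rd, 88.3rd and 82.8th percentile of those libraries. None of the searched motifs lay within 100 bp of its summit. The next region outward, 253.8 kb from the gene and therefore outside the window, was called in all 6 libraries with a change of −0.53 and falls in the SEMA3D window.

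The other gained regions at SEMA3A were shallow. The higher ranked of them, 18 kb upstream (chr7:84510172-84511004), had pileups of 11, 23 and 22. Among the lost regions, 1 in an intron (chr7:84357745-84358284) had pileups of 23, 14 and 16 in the vector libraries.

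Among the regions called in all 6 libraries, the largest change at SEMA3A was at chr7:84529359-84530283, 36.9 kb upstream, with a TEAD motif near the summit. Its heights were −1.58, −1.72 and −1.34 in the vector libraries and 0.05, 0.17 and 0.06 after deletion, a change of 1.64. The groups did not overlap, and the MyoD-deleted libraries lay at the height of a median region. An intronic region with an AP-1 motif (chr7:84251346-84252169) went from −1.58, −1.90 and −1.80 to −1.0, −0.72 and −1.18, a change of 0.79. In the other direction, an intronic region with CAGCTG near its summit (chr7:84339042-84339778) went from −1.17, −1.64 and −1.52 to −2.40, −2.34 and −1.92, a change of −0.78. At the canonical transcript's own start the region (chr7:84194541-84196504) had a change of −0.17, with heights of 1.17, 1.55 and 1.42 against 1.23, 1.18 and 1.21, which overlap. The median change of the 17 regions was 0.01.

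SEMA3C, an attractant for migrating neural crest and vascular cells, had both rises and falls in its locus. The SEMA3C window (gene body chr7:80742538-80922359, minus strand) held 50 regions, 3 gained and 0 lost (against 4.56% and 1.78% of all regions). Of 13 regions called in all 6 libraries, 4 rose (30.8%, against 11.4% of all regions tested) and 5 fell (38.5%, against 12.8%). The 5 that fell were all upstream of the gene. The gained count was 9 without vector replicate 1, and the lost count was 3 without MyoD-deleted replicate 3. The 5′ end of the canonical transcript, chr7:80918607-80919693, was among the most enriched peaks of every library, at the 98.9th to 99.9th percentile. Its height was 2.53, 2.89 and 2.69 in the vector libraries and 2.68, 2.81 and 2.90 after deletion. The groups overlapped there, and the change of 0.09 (SE 0.10, 95% interval −0.12 to 0.31) did not pass the threshold (limma adjusted p = 0.571).

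The region of SEMA3C that rose with the smallest adjusted p was in intron 2 (chr7:80883274-80884013), with an AP-1 site near the summit. Heights were −0.19, −0.72 and −0.80 in the vector libraries and 0.55, 0.70 and 0.37 after deletion, a change of 1.11 (SE 0.18, limma adjusted p = 0.000215). A region beyond the 3′ end (chr7:80722014-80723487) went from 1.16, 1.12 and 1.04 to 1.80, 1.90 and 1.44, a change of 0.61 (SE 0.12, limma adjusted p = 0.00151). The groups did not overlap in either region. By the rank of fold enrichment neither passed the threshold (limma adjusted p = 0.159 and 0.361), and the local background rose beside the summit, in the first of them from between 1.33 and 1.83 times the library's smallest background to between 2.89 and 3.27 times. The part of this in the result was not tested.

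Both of the leading SEMA3C regions that fell hold CAGCTG near the summit. At chr7:81029057-81030132, 107.3 kb upstream, heights went from −0.67, −0.56 and −1.04 to −1.95, −2.14 and −1.84, a change of −1.22 (SE 0.22, limma adjusted p = 0.000491). At chr7:81063995-81064809, 142.3 kb upstream, they went from −1.25, −0.90 and −1.19 to −2.16, −2.46 and −2.18, a change of −1.15 (SE 0.22, limma adjusted p = 0.000929). Every MyoD-deleted library was below every vector library in both. The higher ranked gained regions lay in intron 12 (chr7:80781384-80782020, pileups 22, 24 and 42, with a TEAD motif) and intron 4 (chr7:80826841-80827537, pileups 13, 14 and 17).

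SEMA3D, a ligand studied in endothelial and neural crest patterning, was the locus with the lowest median. Its window (gene body chr7:84995553-85187056, minus strand) held 22 regions, 0 gained and 1 lost (against 4.56% and 1.78% of all regions). Of 10 called in all 6 libraries, 1 rose (10%, against 11.4% of all regions tested) and 4 fell (40%, against 12.8%). The median change of the 10 was −0.54, beside 0.04 over all regions tested. The median height over these regions was −0.71, −0.70 and −1.03 in the vector libraries and −1.19, −1.24 and −1.08 after deletion, which did not overlap. When vector replicate 2 was left out 1 region fell, and by the rank of fold enrichment 0 did.

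The SEMA3D regions that fell with the smallest adjusted p were distal. At chr7:85404839-85406042, 218.3 kb upstream, heights went from −0.43, 0.36 and 0.51 to −1.10, −1.29 and −1.28, a change of −1.37 (SE 0.22, limma adjusted p = 0.000217). The lost region chr7:85407149-85407731, which carries CAGCTG 5 bp from the summit, lay just beyond it and had pileups of 36, 33 and 39 in the vector libraries. The other, chr7:84810934-84812080, lay beyond the 3′ end with SEMA3A as the nearest 5′ end and also held CAGCTG, and its change was −0.77 (SE 0.19, limma adjusted p = 0.00587). One region rose, in intron 1 at 14.2 kb from the 5′ end (chr7:85172503-85173405), from −1.75, −2.11 and −1.96 to −0.47, −0.65 and −0.50, a change of 1.40 (SE 0.20, limma adjusted p = 8.43e-05). At the 5′ end itself (chr7:85185560-85187336) heights were 2.44, 2.47 and 2.66 against 2.26, 2.33 and 2.24. That change of −0.25 (SE 0.09, limma adjusted p = 0.0666) did not pass, although the groups did not overlap, and it passed without vector replicate 1 (limma adjusted p = 0.0258).

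SEMA3E, the plexin D1 ligand, had no open region within 2 kb of its 5′ end. Its window (gene body chr7:83363238-83649139, minus strand) held 23 regions, 1 gained and 0 lost (against 4.56% and 1.78% of all regions). Of 10 called in all 6 libraries 0 rose (against 11.4% of all regions tested) and 1 fell (10%, against 12.8%). The region that fell was in intron 4 (chr7:83427672-83428431), where CAGGTG and an AP-1 site lie next to each other. Heights went from −0.70, −0.81 and −0.69 to −2.27, −1.58 and −1.84, a change of −1.17 (SE 0.22, limma adjusted p = 0.000836), with no overlap of the groups. The gained region (chr7:83118945-83119623) was shallow, with pileups of 14, 12 and 18, and had PCLO as its nearest gene. Without vector replicate 1 the locus had 2 lost regions and 2 falls.

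SEMA3F, a ligand that signals through NRP2, lies in a gene-dense part of chromosome 3, where most of the regions in its window are nearer to other genes. The window around it (gene body chr3:50155045-50189075, plus strand) held 51 regions, but only 7 had SEMA3F as the nearest 5′ end, and of 25 called in all 6 libraries 0 lay in the gene body. No region lay within 2 kb of its 5′ end. The 7 nearest regions were each called in 1 to 5 libraries, the most widely called of them (chr3:50170656-50172089, in an intron) in 2 vector and 3 MyoD-deleted libraries with pileups of 21 to 28. In the window 4 of the 25 rose (16%, against 11.4% of all regions tested) and 0 fell (against 12.8%). All 4 had another gene as the nearest 5′ end.

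The rise with the smallest adjusted p in the SEMA3F window was 1478 bp from the 5′ end of SEMA3B, the neighbouring semaphorin gene (chr3:50268719-50269292). Its heights were 0.29, 0.44 and 0.54 in the vector libraries and 1.25, 1.47 and 1.27 after deletion, a change of 0.91 (SE 0.13, limma adjusted p = 5.4e-05). The fold enrichment was low, at the 2.44th to 3.29th percentile in the vector libraries and the 14.0th to 21.4th after deletion. The local background went from between 10.3 and 11.8 times the library's smallest to between 13.7 and 16.9 times. The part of this in the rise was not tested. The next, with an AP-1 and a TEAD motif near each other, was nearest to RBM5 (chr3:50067732-50068832) and went from −0.30, −0.95 and −0.96 to 0.65, 0.35 and 0.39, a change of 1.20 (SE 0.19, limma adjusted p = 0.00019). Neither pair of groups overlapped. The gained regions, nearest to RBM5 and RBM6, had pileups of 13 to 18, and the gained count was 4 without MyoD-deleted replicate 1.

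**Figure D2:**
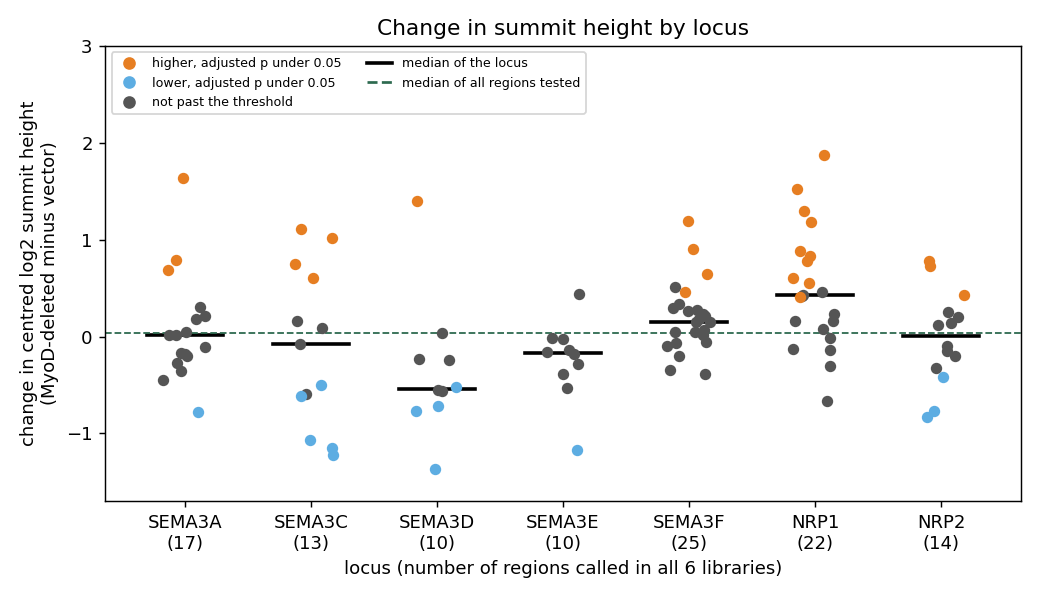
Each point is a region called in all 6 libraries, with its change in centred log2 summit height (MyoD-deleted minus vector) on the vertical axis and the locus on the horizontal axis. Black bars are the locus medians and the dashed line the median of all regions tested (0.04), with NRP1 at 0.43 and SEMA3D at −0.54.

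NRP1, the receptor for SEMA3A and a co-receptor for vascular endothelial growth factor, had the most regions that rose. The NRP1 window (gene body chr10:33177492-33336262, minus strand) held 49 regions, 5 gained and 0 lost (against 4.56% and 1.78% of all regions). Of 22 called in all 6 libraries, 10 rose (45.5%, against 11.4% of all regions tested) and 0 fell (against 12.8%). The median change was 0.43. The libraries called 31, 27 and 25 of the 49 regions in the vector group and 37, 45 and 39 after deletion. The median height over the 22 regions was 0.02, −0.68 and −0.74 in the vector libraries and 0.21, 0.22 and 0.06 after deletion. The groups did not overlap in the number of calls or in the median height, and vector replicate 1 stood closest to the MyoD-deleted libraries. Over the whole series the vector libraries held 74121, 63140 and 64683 peaks and the MyoD-deleted libraries 73745, 80439 and 80608. The part of this in the calls at NRP1 was not tested.

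The window is shared with ITGB1, the gene for integrin beta 1, which is the nearest gene for 24 of the 49 regions. Of the 10 regions that rose, 5 were nearest to NRP1 and 5 to ITGB1. The count of rises was 11 without vector replicate 1, 6 without vector replicate 2 and 6 without MyoD-deleted replicate 2. By the rank of fold enrichment it was 2, beside 1 fall, and the median change was 0.15.

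The NRP1 window's smallest adjusted p was at chr10:33129032-33130029, beyond the 3′ end and nearest to ITGB1, with a TEAD motif near the summit. Pileups were 66, 24 and 46 in the vector libraries and 122, 164 and 157 after deletion. The heights of −0.30, −1.22 and −0.52 went to 1.07, 1.31 and 1.21, a change of 1.88 (SE 0.19, limma adjusted p = 3.29e-06), with no overlap. The local background moved with the summit, from between 1.42 and 2.30 times the library's smallest background to between 5.60 and 6.39 times, and by the rank of fold enrichment the change did not pass (limma adjusted p = 0.111). The part of the background in this rise was not tested.

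Upstream of NRP1, 4 of 5 regions called in all 6 libraries rose, against 11.4% of all regions tested. The leading one, 85.7 kb upstream (chr10:33421689-33422401), went from −0.88, −1.72 and −1.65 to −0.27, −0.40 and −0.02, a change of 1.19 (SE 0.23, limma adjusted p = 0.000969). It holds both a TEAD and an AP-1 motif and kept its call in all the alternatives that gave it a value. Another 2 upstream regions, named after their values were seen, rose by 1.29 (chr10:33412270-33413337) and 1.52 (chr10:33452940-33453922). Vector replicate 1 lay far above the other vector libraries in both, at 0.09 beside −2.49 and −1.19 in the first, where it overlapped the MyoD-deleted heights of 0.16, 0.15 and −0.02, and at 0.14 beside −1.42 and −2.14 in the second. Of the gained regions, the most enriched was 188.9 kb upstream (chr10:33524772-33525468) with pileups of 24, 26 and 40, and it holds CAGCTG 5 bp from the summit. The other named gained region, 10182 bp from the ITGB1 5′ end (chr10:33015752-33016283), had pileups of 27, 32 and 28.

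The NRP1 5′ end itself was open in all libraries (chr10:33334246-33336816). Its heights were 0.30, 0.40 and 0.79 against 0.67, 0.56 and 0.75, which overlap, and the change of 0.16 (SE 0.15, 95% interval −0.15 to 0.47) did not pass (limma adjusted p = 0.49).

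NRP2, the receptor for SEMA3F and SEMA3C, showed rises in the gene and falls outside it. The NRP2 window (gene body chr2:205681990-205798133, plus strand) held 36 regions, 1 gained and 2 lost (against 4.56% and 1.78% of all regions). Of 14 called in all 6 libraries 3 rose and 3 fell (21.4% each, against 11.4% and 12.8% of all regions tested). The median change of the 14 was 0.01. Without MyoD-deleted replicate 2, 0 fell, and the gained count was 3 without vector replicate 1 and 3 without MyoD-deleted replicate 1. The 3 that rose were all in the gene body, and of the 3 that fell 2 lay upstream and 1 downstream.

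The 5′ end of NRP2 was among the regions that rose (chr2:205682323-205682982), from 0.82, 0.79 and 1.05 to 1.31, 1.31 and 1.32, a change of 0.43 (SE 0.12, limma adjusted p = 0.0123). SEMA3E and SEMA3F had no 5′-end region, and those of SEMA3C, SEMA3D and NRP1 did not pass the threshold. A region 18.8 kb into the gene, in an exon of a transcript other than the canonical one (chr2:205700381-205701414), went from 0.55, 0.08 and 0.22 to 0.99, 1.36 and 0.84, a change of 0.78 (SE 0.16, limma adjusted p = 0.00143). In intron 12, chr2:205754550-205755747 went from 0.07, −0.45 and −0.40 to 0.48, 0.61 and 0.32, a change of 0.73 (SE 0.17, limma adjusted p = 0.00375), and the gained region of the locus lay in the same intron (chr2:205752969-205753319, pileups 46, 49 and 46). The gained region's fold enrichment stood at the 33.7th, 24.8th and 31.9th percentile, on a local background of 3.20 to 3.84 times the library's smallest. The groups did not overlap in any of the 3 regions that rose. By the rank of fold enrichment none of the 3 passed the threshold, and the change in intron 12 was −0.14. On the same scale the mean local background went from 4.22 to 5.35 at the 5′ end. It went from 2.17 to 4.03 at the exon region and from 1.86 to 3.61 in intron 12. The part of this was not tested. Without vector replicate 2 the 5′ end did not pass (limma adjusted p = 0.0751).

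All 3 NRP2 regions that fell hold CAGCTG within 100 bp of the summit. At chr2:205585123-205586187, 96.3 kb upstream and at the 97.0th to 98.8th percentile of fold enrichment, heights went from 1.5, 1.49 and 1.46 to 1.18, 0.80 and 1.23, a change of −0.42 (SE 0.12, limma adjusted p = 0.0199). At chr2:205482483-205483415, 199.1 kb upstream, they went from −0.23, −0.35 and 0.13 to −0.73, −1.46 and −0.56, a change of −0.77 (SE 0.23, limma adjusted p = 0.0185). The groups did not overlap, but neither passed without MyoD-deleted replicate 2 (limma adjusted p = 0.127 and 0.111) or by the rank of fold enrichment. The leading lost region (chr2:205936598-205937813), nearest to INO80D, also holds CAGCTG and had pileups of 40, 16 and 30 in the vector libraries. The other (chr2:205539184-205540041) had pileups of 21, 14 and 16.

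**Figure D3:**
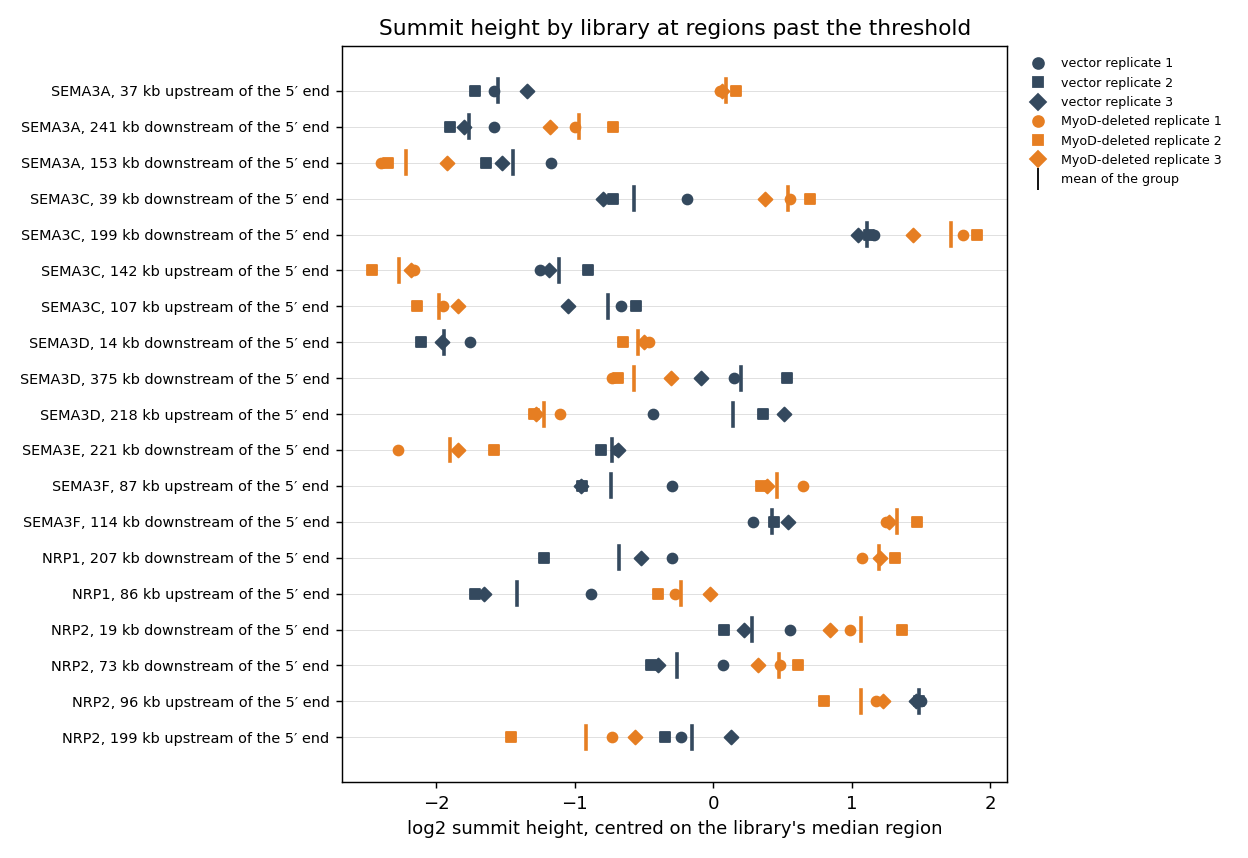
Centred log2 summit height (horizontal axis) in each of the 6 libraries at the leading higher and lower regions of each locus, labelled by their distance from the gene's 5′ end. Dark points are vector and orange points MyoD-deleted libraries, with a vertical bar at each group mean. In every row shown the heights of the groups do not overlap, and the rows were picked by adjusted p on these same heights.

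The motifs were counted within 100 bp on each side of the top summit, on both strands, in all 105569 regions. CAGCTG was in 10 of the 14 lower regions of the loci (71.4%, against 57.1% of all lower regions) and 3 of the 25 higher regions (12%, against 15.9%). Over all 267 regions it was in 22.1%, against 25.1% in the series. By locus the 10 were 3 of 5 at SEMA3C, 3 of 4 at SEMA3D, 3 of 3 at NRP2 and 1 of 1 at SEMA3A, with 0 of 1 at SEMA3E. An AP-1 site was in 9 of the 25 higher regions (36%, against 33.0%), 4 of them at NRP1, in 2 of the 14 lower ones (14.3%, against 14.5%) and in 1 of the 15 gained ones (6.67%, against 27.4%). A TEAD site was in 10 of the 25 higher regions (40%, against 24.3%) and 7 of the 15 gained ones (46.7%, against 24.5%), with 20.2% over all 267 regions and 17.3% over all regions of the series. The other E box, CAGGTG or CACCTG, was in 2 of the 14 lower regions (14.3%, against 29.9%). These counts include the SEMA3A window, which was chosen from the same data. It held 3 of the 15 gained regions and 1 of the 14 lower ones. Of the 25 higher regions it held 3, 1 with an AP-1 site and 1 with a TEAD site. A match is a run of letters and not a bound site.

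**Figure D4:**
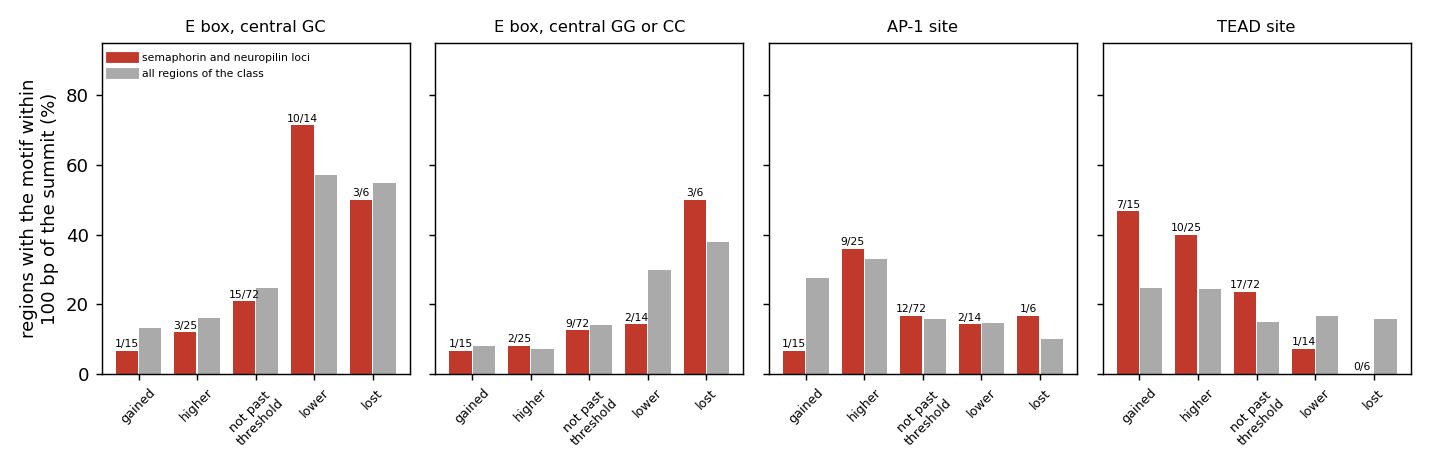
Share of regions (vertical axis, %) with each searched motif within 100 bp of the summit, by class of region, in the loci (red, with the counts above the bars) and over all regions of the same class in the series (grey). CAGCTG, the E box with a central GC, stands at 71.4% of the lower and 12% of the higher regions of the loci.

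The other genes of the pathway were taken from a list of 37, with regions counted in the gene body and 5 kb upstream. Of these 36 had a region, and of 137 regions called in all 6 libraries 16 rose (11.7%, against 11.4%) and 30 fell (21.9%, against 12.8%), with 13 of 296 gained (4.39%, against 4.56%) and 11 lost (3.72%, against 1.78%). The median change was −0.04. The genes below are named after their values were seen. PLXNA4, a plexin that carries the SEMA3A signal, had 6 falls and 1 rise among 11 regions. Its lead region (heights 0.76, 0.84 and 0.42 against −1.54, −2.24 and −2.09) changed by −2.62 (SE 0.21, limma adjusted p = 4.99e-07). NRCAM, an adhesion molecule that associates with NRP2, had 4 falls and 0 rises among 6 regions. Its lead region changed by −1.72 (SE 0.18, limma adjusted p = 3.62e-06). MICAL2, an actin oxidase of the pathway, had 5 falls and 4 rises among 18 regions. PLXNA2 had 3 falls and 1 rise among 14 regions, and PLXND1, the SEMA3E receptor, 2 falls and 0 rises among 7. LIMK1, a kinase of the actin regulator cofilin, had 2 falls among 5 regions, and its lead region changed by −1.29 (SE 0.16, limma adjusted p = 1.71e-05). SEMA3B had 2 rises among 3 regions, both counted in the SEMA3F window above. The vascular endothelial growth factor genes and their receptors had 1 fall, at VEGFC, and KDR held no region.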

How the data were processed

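Peaks of 3 vector and 3 MyoD-deleted ATAC-seq libraries of RH30 cells were analysed, grouped by the sample labels. The authors used Rsubread for alignment to hg38, retained properly paired reads, and ran MACS2 on each library without pooling. The deposited score is derived from the −log10 q value of the peak, the deposited fold enrichment is the summit pileup as a ratio to the local background, and the deposited −log10 p and −log10 q belong to the summit. None of these is normalized between libraries. Whole pileups were recovered from the fold enrichment and −log10 p of 100% of peaks. Overlapping or adjoining peaks were merged into regions and assigned by their top summit to GENCODE 44 genes. The log2 pileup, minus the library's median, was tested with limma 3.58.1 (trend, Benjamini-Hochberg) and the scripts were tested on simulated data. The study's own count test needs read counts, which were not used here. Sequence was read from GRCh38 by samtools 1.23.1.

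The genes, lists and motifs were chosen with earlier results of these data known. Named regions were, per locus, the region within 2 kb of the annotated 5′ end, up to 2 gained and 2 lost by mean fold-enrichment percentile, and up to 2 higher and 2 lower by adjusted p. The 5′ ends of the canonical SEMA3A and SEMA3C transcripts were added after seeing the data, and 1 lost region at SEMA3A is not reported here. Same-numbered libraries were not paired (correlations −0.04, −0.20 and 0.09). Alternatives covered the peak threshold, the number of peaks, overlap, window, scale, replicate block and each library left out.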

Additional observations from a re-analysis of the deposited data

How the results depend on the processing

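The main counts were 15 gained, 6 lost, 25 higher and 14 lower regions. With −log10 q of at least 5, 8 were lower. With every library limited to the 63140 peaks of the smallest, 9 were gained, 11 lost and 6 lower. Over the whole series the shares at this setting were 3.26% gained, 3.71% lost and 11.4% lower. With peaks covering at least 50% of a region, 9 were gained, 9 lost and 7 lower. Under both of these settings gained did not outnumber lost in the loci, and with equal numbers of peaks the same held over the series. Without centring, which adds 0.19 to every change, 39 were higher and 7 lower, and by the rank of fold enrichment 8 and 8. Of all regions tested, 24.7% were higher and 8.03% lower without centring, and 4.12% and 4.67% by the rank of fold enrichment. With a window of 100 kb, 8 were gained, 3 lost and 6 lower. With regions taken by nearest 5′ end, 9 were gained and 16 higher. Leaving out 1 library at a time gave 16 to 26 gained, 6 to 9 lost, 19 to 28 higher and 8 to 16 lower, with 26 gained without vector replicate 1, 23 gained without MyoD-deleted replicate 1, 9 lower without vector replicate 2 and 8 lower without MyoD-deleted replicate 2. A setting also changes how many regions are tested. With equal numbers of peaks 96 regions of the loci, rather than 111, were called in all 6 libraries. With 50% cover NRP1 had 16 rather than 22 such regions and SEMA3D 5 rather than 10. Where no share over the series is given, a smaller count is therefore not read as a weaker result. Gained and lost counts with a library left out follow a looser rule. The causes of the differences were not tested.

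With the replicate number as a block, 25 were higher and 13 lower. Same-numbered libraries did not deviate together, so the number is taken only as a name.

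Of 297 alternative values at 24 named regions, 266 kept direction and side of the threshold, 26 lost their call, 2 gained one and 3 changed sign. The sign changed at the NRP1 5′ end (−0.0199) and in NRP2 intron 12 (−0.14) by the rank of fold enrichment, and at the SEMA3A canonical 5′ end without centring (0.0186). Of the 20 called regions, which include those named at SEMA3A, 9 kept the call by the rank of fold enrichment and 17 by the rank of −log10 p. Read depth is not listed, and a gained region may hold reads below the calling limit in the vector libraries. The smallest local background was 3.41, 2.22 and 2.74 in vector replicates 1 to 3. In MyoD-deleted replicates 1 to 3 it was 2.27, 2.28 and 2.35. Vector replicates 1 and 3 thus stood above every MyoD-deleted library on this measure, and vector replicate 2 stood below. The part of depth in the gained regions was not tested.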
